A study of Rattus norvegicus with 4 samples.

Results

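Cebpb, Cebpd, Klf9, Maf, Ifrd1 and Pnrc1 encode 6 regulators of transcription that were followed on 4 arrays of serum-stimulated Rat1 fibroblasts. Every probe set whose only gene symbol in the platform annotation was one of these names was taken, which gave 6 of 4736 genes with such a probe set and 13 of 8740 probe sets (control probe sets left out): 3 each for Cebpd and Maf, 2 each for Cebpb, Klf9 and Pnrc1, and 1 for Ifrd1. The 6 genes were themselves chosen from values of these same arrays, among genes with high or low folds, so that their folds are a description and no p was computed. Rat1 is an immortalized rat fibroblast line. Cells of 1 line carried an empty control retrovirus (Rat1-control), and cells of the other a retrovirus for Omomer (Rat1-Omomer), in which the Myc-interfering miniprotein Omomyc is fused to a modified estrogen receptor domain that responds to 4-OHT. Both lines received 4-OHT, spent 48 h in 0.1% serum and were harvested at 0 min or after 90 min in 10% serum, with 1 array for each of the 4 conditions. The labels have 4-OHT present throughout starvation whereas the methods add it shortly before serum. The transfection field contradicts the title of the Omomer array at 0 min and of the control array at 90 min, and titles were followed, so every comparison that uses either array rests on its title. Cells at 0 min are called starved and cells at 90 min stimulated. Because no condition had a second culture, differences between cells, cultures and hybridizations cannot be told apart.

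Cebpb and Cebpd are C/EBP proteins, basic leucine zipper factors that dimerize and bind DNA at C/EBP sites. They are induced by cytokines and hormones, act in the acute phase response and early in fat cell differentiation, and Cebpd is also known from growth arrest. Maf, the c-Maf protein, is a leucine zipper factor of the AP-1 superfamily that binds Maf recognition elements. Klf9 is a zinc finger protein of the Kruppel-like family that binds GC-rich boxes and is raised by glucocorticoid and thyroid hormone. The remaining members do not bind DNA on their own account: Ifrd1 is an early response gene of growth factors whose protein associates with the Sin3 corepressor complex, and Pnrc1 is a small nuclear protein that binds nuclear receptors as a coactivator. Serum given to starved fibroblasts sets off a wave of early transcription that includes Myc, and the study asked how Omomyc alters it.

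RefSeq promoter windows of build GRCr8, from 250 bases before to 50 bases after the start of the gene, were at hand for 4 of the 6 genes. They are shown because the study concerns Myc binding to E-boxes and because serum-regulated promoters are often read for response elements. The windows are chr3:176816755-176817054 on the + strand for Cebpb, chr6:63016016-63016315 on the - strand for Ifrd1, chr1:230126396-230126695 on the + strand for Klf9 and chr19:60621307-60621606 on the - strand for Maf. Capitals mark the CRE half-site TGACG, the CCAAT box CCAAT, the GC box GGGCGG and the TATA box TATAAA on either strand.
Cebpb: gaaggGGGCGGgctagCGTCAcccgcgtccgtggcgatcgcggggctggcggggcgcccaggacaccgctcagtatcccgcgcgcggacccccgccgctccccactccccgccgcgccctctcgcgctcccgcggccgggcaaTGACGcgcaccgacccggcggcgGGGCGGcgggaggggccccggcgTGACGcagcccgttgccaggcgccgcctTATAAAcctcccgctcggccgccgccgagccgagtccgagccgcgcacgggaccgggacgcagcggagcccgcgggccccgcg
Ifrd1: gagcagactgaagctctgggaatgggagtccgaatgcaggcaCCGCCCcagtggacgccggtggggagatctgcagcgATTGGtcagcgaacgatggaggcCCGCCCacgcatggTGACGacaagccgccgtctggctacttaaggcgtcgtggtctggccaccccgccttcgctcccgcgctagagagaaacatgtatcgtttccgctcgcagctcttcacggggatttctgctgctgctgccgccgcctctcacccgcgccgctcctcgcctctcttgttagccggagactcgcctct
Klf9: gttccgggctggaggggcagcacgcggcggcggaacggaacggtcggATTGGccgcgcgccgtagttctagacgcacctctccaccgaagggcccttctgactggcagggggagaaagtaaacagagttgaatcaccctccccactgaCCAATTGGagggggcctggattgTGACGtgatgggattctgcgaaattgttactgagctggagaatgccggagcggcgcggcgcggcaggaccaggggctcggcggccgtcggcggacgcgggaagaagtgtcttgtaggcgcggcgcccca
Maf: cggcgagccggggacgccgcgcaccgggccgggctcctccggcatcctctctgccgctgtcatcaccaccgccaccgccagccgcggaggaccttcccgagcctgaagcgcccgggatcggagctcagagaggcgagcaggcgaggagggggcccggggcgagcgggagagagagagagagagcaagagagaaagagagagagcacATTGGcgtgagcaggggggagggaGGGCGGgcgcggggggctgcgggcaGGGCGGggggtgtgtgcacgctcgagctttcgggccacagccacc

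None of the 4 windows held the E-box CACGTG, which 6.42% of all 33469 promoter windows of this length held. Nor did any hold the full CRE TGACGTCA (1.83% of all windows), the serum response CArG box (1.64%), the C/EBP site TTGCNNAA (10.6%) or TGCTGA, the core of the Maf element (18.4%). The CRE half-site, which is contained in the full CRE, lay 3 times in the Cebpb window, at -234, -107 and -61, and once each in the windows of Ifrd1, at -135, and Klf9, at -79. Of all windows, 21.2% held it. The GC box to which Sp and Kruppel-like factors bind lay 2 times each in the windows of Cebpb, Ifrd1 and Maf and in 33.1% of all windows. The CCAAT box lay 3 times in the Klf9 window, with 2 of the matches overlapping, and once each in those of Ifrd1 and Maf (37.5% of all windows). A TATA box was found only in the Cebpb window among the 4, at -33 (14.2% of all windows). The string TGANTCA, looser than the AP-1 consensus because its middle base is open, lay only in that of Klf9, as TGAATCA (7.33%). This match does not have the C or G that the AP-1 consensus has there. The windows were 81.0% GC for Cebpb, 73.3% for Maf, 65.3% for Klf9 and 64.3% for Ifrd1, against a median of 51.7% over all windows. A match is a string of letters, and no binding was measured here.

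Each value below is a MAS 4 average difference, that is, perfect match minus mismatch brightness averaged over a probe set, on a linear scale that includes negative values. Values of different probe sets were not compared, since probes differ in brightness. Noise was estimated from the values below 0, with an SD of 524, and 2 times this SD, 1048, served as a floor to which lower values were raised before a ratio was taken. Where 1 of the values was raised in this way the fold is a bound, and where both were there is none. Folds were called at 3-fold. Of the 13 probe sets, 11 lay above the floor on each array at 0 min, 10 on that of stimulated control cells and 9 on that of stimulated Omomer cells. How far probe sets of the same gene differ in log2 fold gives a yardstick for a single fold, although it holds no spread between cultures. This within-gene SD was 0.30 between the starved lines, over 547 genes, and 0.32 for the serum response of control cells, over 492 genes. In the comparisons with the array of stimulated Omomer cells it lay between 0.71 and 0.74. That array stood apart also in its own floor, 1228 against 895 to 1090 for the others, and in 1744 probe sets made from 5 series of expressed sequence tags (EST), whose names begin with rc_AA79, rc_AA80, rc_AA85, rc_AA87 or rc_AA89. Of those with a fold, 28.9% were at least 3-fold lower than for starved control cells, against 4.36% of all others. The brightest Maf probe set is the 1 member in these series. Outside them the within-gene SD of the comparisons with the array of stimulated Omomer cells lay between 0.60 and 0.63. Fibroblast markers were in place: of 13, 10 were above the floor on all arrays, among them Col1a1, Vim and S100a4, while the defining markers Pdgfrb, Lum and Dcn were above it on none. Of 8 markers of other cell types on the array, 6 were above the floor on no array, Cd14 was above it on all and Ptprc on 2, at 1070 and 1097. The summed level of the 8 was 5502 to 6277 on the first 3 arrays and 9136 for stimulated Omomer cells, of which Cd14 made 3508 to 4276 and 6924. The summed level of the fibroblast markers was also highest there, at 543564 against 396733 to 470335. That sum is led by the brightest probe sets, and single markers went both ways. Col1a2 had 55641 in stimulated control and 14174 in stimulated Omomer cells, by a probe set of the EST series. Of these series 27.2% were called lower between these arrays, and their part in the Col1a2 value was not tested. Fn1 had 81542 and 39902, whereas Col1a1 had 67837 and 100987. Of 23 fibroblast marker probe sets with a fold between these 2 arrays, 14 log2 folds were positive and 9 negative. At least 3-fold lower were 2 of the 23, against 8.57% of all probe sets. Whether cells of another type had a part in any fold was not tested, and in bulk RNA fewer cells of a type and less RNA per cell cannot be told apart.

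**Figure D1:**
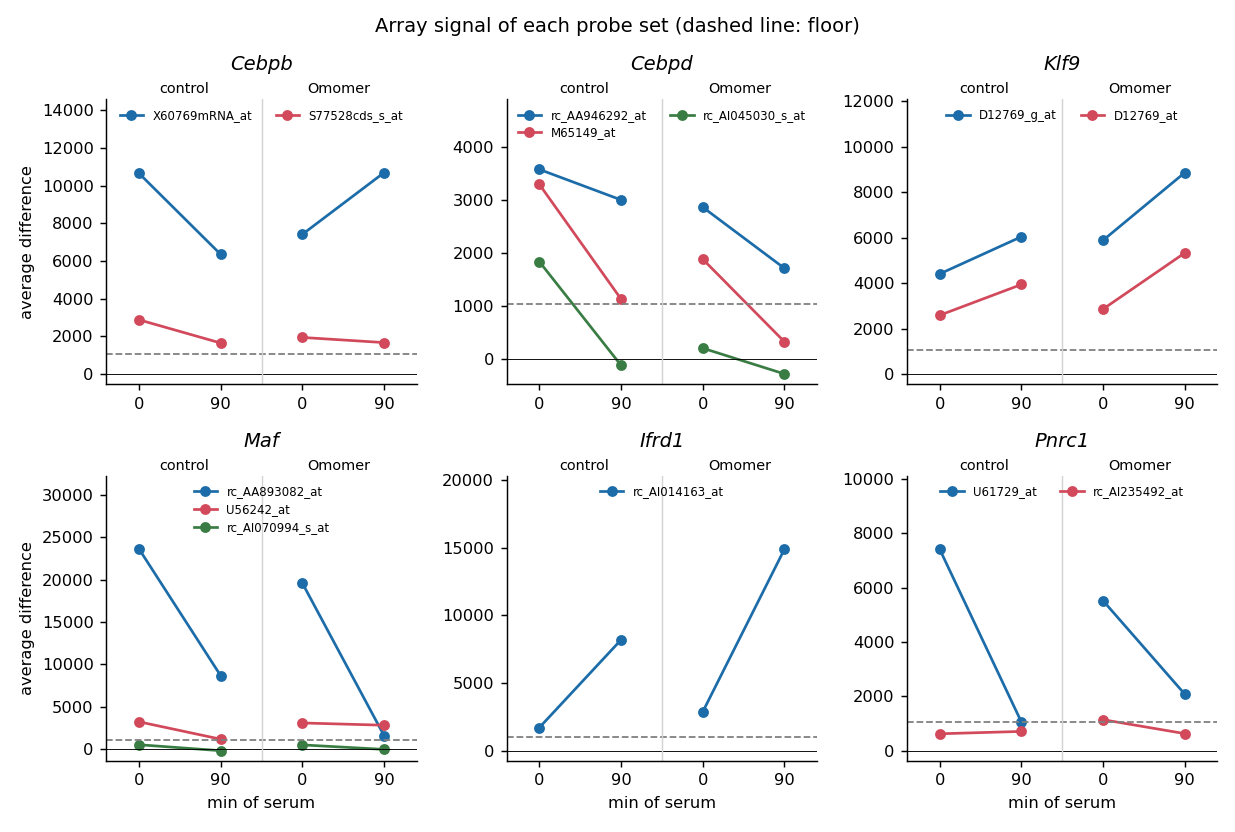
Average difference (linear scale) of the 13 probe sets by gene, 1 point per array, at 0 and 90 min of serum for control (left) and Omomer cells (right); the dashed line is the floor of 1048 and lines join the arrays of 1 cell line. Ifrd1 and Klf9 were higher at 90 min in both lines, Cebpd and Pnrc1 lower by the probe sets above the floor, and the Maf probe sets part in Omomer cells.

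Cebpb was lower with serum in control cells and lower at 0 min in Omomer cells, and its probe sets parted in Omomer cells at 90 min. The brighter one, X60769mRNA_at, had 10656 in starved control and 7418 in starved Omomer cells, and 6354 and 10694 after serum. The other, S77528cds_s_at, had 2882 and 1945 at 0 min, and 1649 and 1672 at 90 min. Both were highest in starved control cells, except that the first was as high in stimulated Omomer cells. At 0 min Cebpb was 1.44-fold and 1.48-fold lower in Omomer cells, log2 folds of -0.52 and -0.57 against a within-gene SD of 0.30. With serum it was 1.68-fold and 1.75-fold lower in control cells. In Omomer cells serum gave 1.44-fold higher by the first probe set and 1.16-fold lower by the second, both within the within-gene SD of 0.71, and the second turned to a log2 fold of 0.08 after quantile normalization. At 90 min the first was 1.68-fold higher in Omomer than in control cells and the second 1.01-fold higher, which turned to a log2 fold of -0.04 after median scaling. No Cebpb fold reached 3-fold.

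Cebpd, the C/EBP gene tied to growth arrest, had its highest value in starved control cells by each of its 3 probe sets, and its lowest in stimulated Omomer cells by both that stayed above the floor on at least 3 arrays. The brightest, rc_AA946292_at, had 3573 in starved control and 2863 in starved Omomer cells, and 3000 and 1714 after serum. M65149_at had 3292 and 1886 at 0 min, and 1136 and 333 at 90 min. The last, rc_AI045030_s_at, had 1839 in starved control cells and stood under the floor elsewhere, at 212, -110 and -272. The probe sets thus shared a direction and differed in size. In control cells serum gave 1.19-fold, 2.90-fold and at least 1.75-fold lower. In stimulated Omomer cells, relative to starved control cells, Cebpd was 2.08-fold, at least 3.14-fold and at least 1.75-fold lower. The bound of 3.14 fell to 2.68 with the floor of that array alone and to 1.57 with double the floor. At 0 min Cebpd was 1.25-fold, 1.75-fold and at least 1.75-fold lower in Omomer cells, log2 folds of -0.32, -0.80 and -0.81.

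Maf was the member with the widest gap between probe sets. Its brightest, rc_AA893082_at, had 23636 in starved control and 19593 in starved Omomer cells, and 8668 and 1597 after serum. U56242_at had 3224 and 3085 at 0 min, and 1169 and 2818 at 90 min. The third, rc_AI070994_s_at, was under the floor on all arrays, with values from -190 to 515. On the 3 arrays other than stimulated Omomer cells the first 2 gave the same picture: 2.73-fold and 2.76-fold lower with serum in control cells, and 1.21-fold and 1.05-fold lower in starved Omomer cells. In stimulated Omomer cells they disagreed. Against starved control cells, rc_AA893082_at was 14.8-fold lower, the second lowest of 4220 probe sets with a fold, whereas U56242_at was 1.14-fold lower. Against stimulated control cells, the first was 5.43-fold lower and the second 2.41-fold higher, a gap of 3.71 in log2 fold. The within-gene SD of this comparison was 0.72. The first probe set belongs to the EST series whose signal was low on that array, and the part of this in the Maf fold was not tested. Within Omomer cells serum gave 12.3-fold lower by the first and 1.09-fold lower by the second.

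Klf9 was higher with serum in both lines by both of its probe sets, which stem from the same sequence and may share probes. D12769_g_at had 4403 in starved control and 5881 in starved Omomer cells, and 6037 and 8854 after serum. D12769_at had 2586 and 2857 at 0 min, and 3937 and 5325 at 90 min. The order was the same in both, with starved control cells lowest, then starved Omomer cells, then control and Omomer cells at 90 min. Serum gave 1.37-fold and 1.52-fold in control cells and 1.51-fold and 1.86-fold in Omomer cells. Relative to starved control cells, stimulated Omomer cells were 2.01-fold and 2.06-fold higher, with 90.1% and 91.1% of the probe sets below. At 90 min Omomer cells exceeded control cells by 1.47-fold and 1.35-fold, log2 folds of 0.55 and 0.44, which is less than the within-gene SD of 0.72. Among Klf9 folds none reached 3-fold.

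Ifrd1, the growth factor-induced coregulator, had the highest folds of the members in the 3 comparisons of 90 with 0 min. Its only probe set, rc_AI014163_at, had 1709 in starved control and 2871 in starved Omomer cells, and 8193 and 14889 after serum. Both serum-stimulated arrays were thus above both starved arrays, and at each time Omomer cells were above control cells. Serum gave 4.79-fold higher in control cells, rank 34 from the highest of 3985 probe sets with a fold, and 5.19-fold higher in Omomer cells. Relative to starved control cells, stimulated Omomer cells were 8.71-fold higher, rank 11 of 4220. Between the lines, Omomer cells were 1.68-fold higher at 0 min, with 96.9% of the probe sets below, and 1.82-fold higher at 90 min, with 85.5% below. These log2 folds, 0.75 and 0.86, exceed the within-gene SD of their comparisons, 0.30 and 0.72. No second Ifrd1 probe set was analysed here to set beside them.

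Pnrc1, the nuclear receptor coactivator, was the member lowest with serum in control cells. U61729_at had 7411 in starved control and 5518 in starved Omomer cells, and 1056 and 2081 after serum. Both starved arrays were above both stimulated ones. In control cells serum gave 7.02-fold lower, rank 9 from the lowest of 3985 probe sets. Its value there, 1056, lies just above the common floor and under the floor of 1090 from that array alone. In Omomer cells serum gave 2.65-fold lower, and against starved control cells the fold was 3.56-fold lower. At 90 min Omomer cells were 1.97-fold higher than control cells. The other probe set, rc_AI235492_at, had 623, 1141, 710 and 629 in the same order and passed the floor on the array of starved Omomer cells alone, so that it says nothing on the serum response of control cells.

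**Figure D2:**
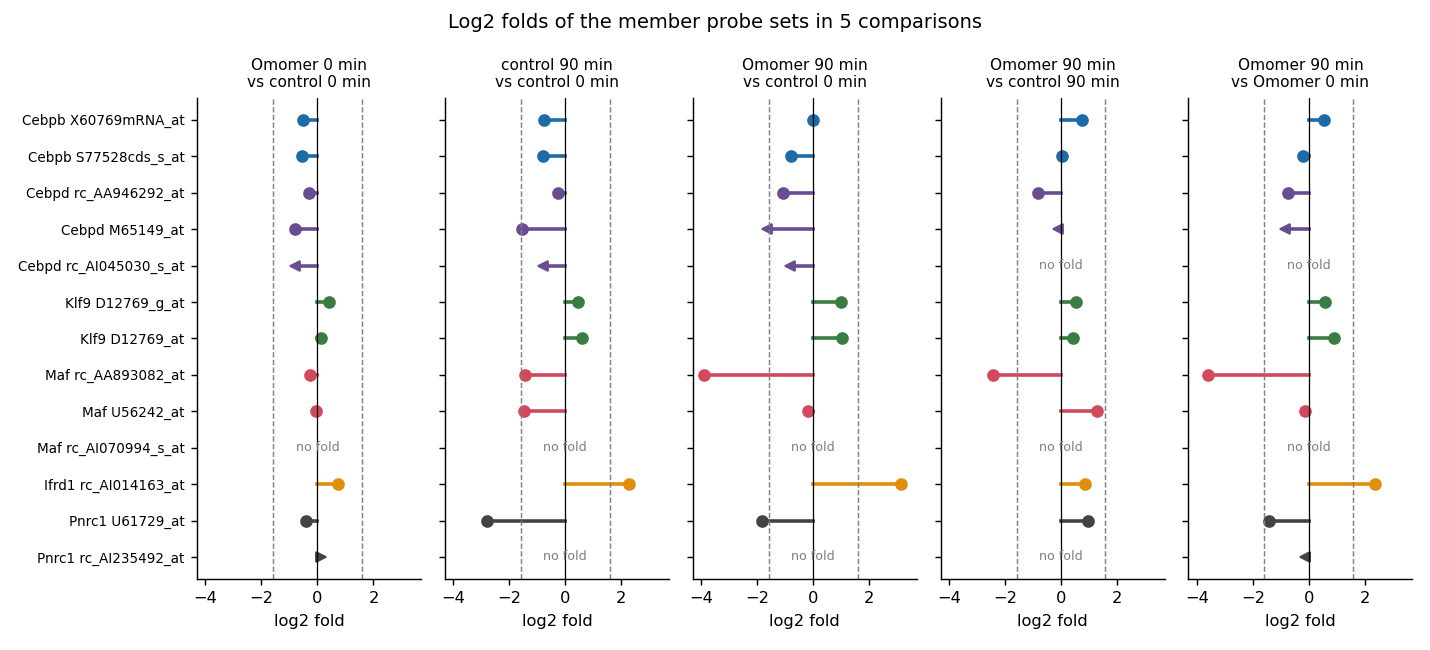
Log2 fold (x axis) of each of the 13 probe sets (rows, coloured by gene) in 5 comparisons of 2 arrays each; triangles are bounds, grey text marks pairs of values under the floor, and dashed lines stand at 3-fold. Ifrd1 lies beyond 3-fold in all 3 comparisons of 90 with 0 min, and the brightest Maf probe set lies far to the left in the 3 comparisons with the array of stimulated Omomer cells.

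Counted over the members, no probe set with a fold (12 of 13) was at least 3-fold different between the lines at 0 min, where 0.251% of all probe sets with a fold were called higher and 0.503% lower. Of the 12, 8 had a negative log2 fold, with a median of -0.30 against 0.01 over all probe sets. In control cells at 90 against 0 min, 1 of 11 was higher (Ifrd1; 1.93% of all) and 1 lower (Pnrc1; 1.81%), and the median was -0.81 against -0.07. For stimulated Omomer cells against starved control cells, 1 of 11 was higher (Ifrd1; 2.80%) and 3 lower (Maf, Pnrc1 and Cebpd; 9.95%). The median was -0.79 against 0.10, or -0.49 against 0.25 without the EST series. In the direct comparison of the lines at 90 min none of 10 was higher (2.22%) and 1 lower (Maf, 8.57%). Of the 10 log2 folds 7 were positive, with a median of 0.49 against 0.18, or 0.55 against 0.32 without the EST series. Within Omomer cells, 1 of 11 was higher (Ifrd1, 2.90%) and 1 lower (Maf, 9.65%). The median was -0.13 against 0.09, or -0.13 against 0.23 without the EST series. The comparisons share arrays, and as the genes were chosen on these values nothing is read from the counts. The folds nearest the threshold were 3.14 for Cebpd and 3.56 for Pnrc1 inside it, both for stimulated Omomer cells, and 2.90 for Cebpd and 2.76 for Maf outside it, both in control cells.

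The serum responses of both lines can be set side by side as log2 folds of 90 over 0 min. Ifrd1 had 2.26 in control and 2.37 in Omomer cells, so that the difference, 0.11, was that of the median probe set (0.11 over 3766 probe sets). Klf9 had differences of 0.13 and 0.29. Pnrc1 had -2.81 and -1.41, a difference of 1.40, above that of 94.8% of all probe sets. For Cebpb the differences were 1.27 and 0.59. For Maf they were 1.33 by U56242_at and -2.17 by rc_AA893082_at, and for Cebpd -0.49 and 0.69. The within-gene SD of such differences was 0.77. Pnrc1 and 1 probe set each of Cebpb and Maf, all lower with serum in control cells, exceeded it upward, the other Maf probe set exceeded it downward, and Ifrd1, Klf9 and the brightest Cebpd probe set stayed within it. The Cebpd value of 0.69, by M65149_at, is an upper bound, since 333 was raised to the floor, and so does not place that probe set within the SD. The difference between lines could not be tested with 1 array each.

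**Figure D3:**
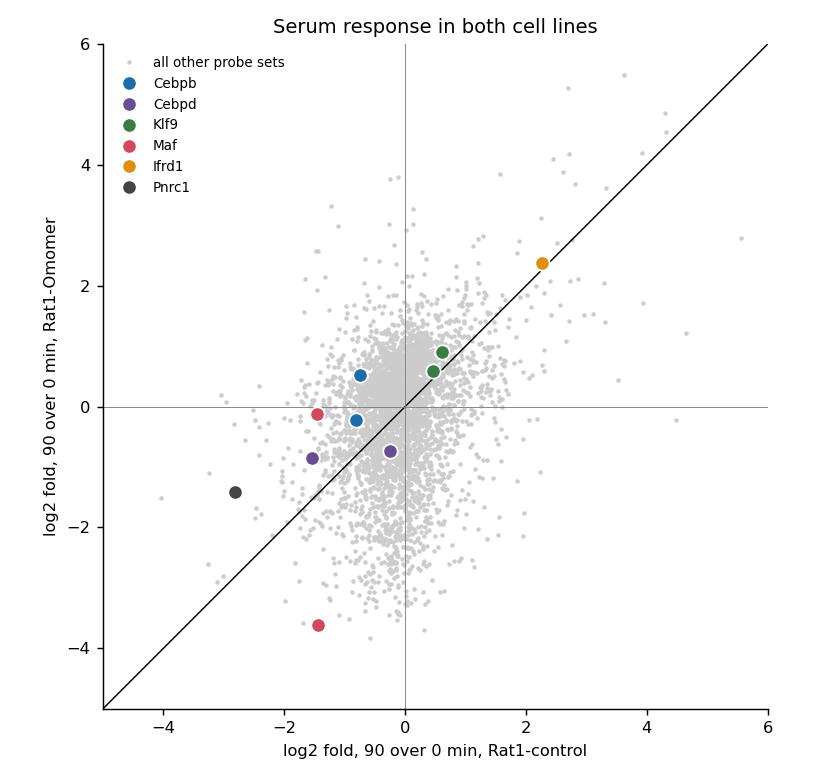
Log2 fold of 90 over 0 min in control cells (x axis) against the same in Omomer cells (y axis) for the 10 member probe sets with both folds (coloured by gene) and all other probe sets with both folds (grey, 3766 in all with the members); the black line marks equal responses. Ifrd1 and Klf9 lie close to the line, Pnrc1, Cebpb and 1 Maf probe set above it, and the other Maf probe set far below.

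Relatives of the members were taken from 8 lists. A listed gene counts as on the array if it was the only symbol of a probe set. Of 17 genes of C/EBP relatives and other leucine zipper factors, 11 were on the array and 8 above the floor on at least 1 array. Between starved control and stimulated Omomer cells 1 of 9 probe sets with a fold passed 3-fold, upward, against 2.80% of all probe sets. This was Cebpg, a C/EBP protein without an activation domain of its own, with 1282 in control and 1183 in Omomer cells before serum and 1475 and 3859 after it, or 3.01-fold. The list's median log2 fold there was 0.39, against 0.10 over all probe sets and 0.25 over those outside the EST series. None of the list's probe sets with a fold belongs to these series. Of 19 genes of cytokine pathways that raise Cebpb and Cebpd, such as Il6st and Stat3, 17 were on the array and 9 above the floor. Inhibitors of these pathways are among them. Of 17 acute phase and fat cell genes known as C/EBP targets, all were on the array and 8 above the floor. Neither list had a probe set past 3-fold in any of the 5 comparisons. Their medians in stimulated Omomer cells against starved control cells were 0.14 and -0.02. The first lies between a measured log2 fold of 0.12 and a lower bound of 0.15. The second lies between an upper bound of -0.12 and a lower bound of 0.09. Neither median thus shows the genes to be unchanged.

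Of the Maf proteins and their partners Mafk and Nfe2l2 had probe sets of their own symbol. All 3 of their probe sets had negative log2 folds in stimulated Omomer cells against starved control cells, with a median of -1.57. The Mafk probe set belongs to the EST series, and its log2 fold of -1.01 is an upper bound. Nfe2l2, the antioxidant response factor that pairs with small Maf proteins, had 12083 and 9464 at 0 min and 8238 and 4075 at 90 min by its brighter probe set. It was 2.97-fold lower in stimulated Omomer cells than in starved control cells, and 4.45-fold lower by the other probe set, the 1 of the 3 past 3-fold (9.95% of all probe sets were called lower). Neither Nfe2l2 probe set belongs to the EST series, and outside these series 4.36% of probe sets were called lower. Both Nfe2l2 probe sets stem from the same sequence and may share probes. Among 14 Kruppel-like and Sp factors, 6 were on the array and 4 above the floor, and Klf4 alone passed 3-fold. It had 3206 and 2911 at 0 min and 2247 and 9069 at 90 min by L26292_at, 1.43-fold lower with serum in control cells and 3.12-fold higher in Omomer cells. Between the stimulated lines it was 4.04-fold higher in Omomer cells by this probe set and at least 7.66-fold higher by L26292_g_at. These were the 2 of 6 probe sets of the list past 3-fold (2.22% of all were called higher), but both are of 1 gene and from the same sequence. The list's median was 1.28, against 0.18 over all probe sets and 0.32 outside the EST series. It lies between the 2 probe sets of Klf10, at 1.08 and 1.47. Klf6 had 0.18 and Sp1 -0.60.

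Partners of the coregulators were partly measured. Of 19 corepressor and coactivator genes 4 were on the array and 3 above the floor. Of these 3, 2 passed 3-fold, downward, from starved control to stimulated Omomer cells. In that comparison 9.95% of all probe sets and 28.9% of the EST series were called lower. Sin3b, a scaffold of the Sin3 complex, had 6010 and 5474 at 0 min, and 5398 in stimulated control and 1262 in stimulated Omomer cells, 4.76-fold lower. Pnrc2, the paralog of Pnrc1, had 3522 and 3926 at 0 min and 2332 and 1155 at 90 min, 3.05-fold lower by a probe set of the EST series. Both 90 min values of Omomer cells are near or under the floor of 1228 from that array alone. Of 28 nuclear receptors, the class that Pnrc1 binds, 25 were on the array and 15 above the floor. Their median in control cells with serum was -0.84 against -0.07 over all probe sets, with 13 of 17 log2 folds negative. The median is itself an upper bound, from Nr3c1, and negative folds of Nr1d1, Nr1d2 and Thra include bounds too. Past 3-fold was 1 probe set each way (1.93% of all probe sets higher, 1.81% lower). Nr1h2, an oxysterol receptor, had 6194 and 4867 at 0 min and 1854 and 4150 at 90 min, 3.34-fold lower with serum in control cells and 1.17-fold lower in Omomer cells. The median of the receptors between the lines at 90 min was 0.45 against 0.18, or 0.32 over all probe sets outside the EST series. None of their probe sets passed 3-fold there. Esr1, the estrogen receptor, had -927 in control and 4711 in Omomer cells before serum and 3325 and 3334 after it. It was thus under the floor in starved control cells only, and alike in both lines after serum. The contrast before serum rests on 1 value, -927, which lies further below 0 than the noise SD of 524. Nr5a1, a steroidogenic receptor, had 5001 in starved Omomer cells and 363 to 447 on the other arrays. Among 12 glucocorticoid-responsive and quiescence genes, 6 were on the array and 4 above the floor, and only Gas6 passed 3-fold. By its brighter probe set it was 1.03-fold higher in stimulated Omomer cells than in starved control cells, and by a probe set of the EST series at least 4.69-fold lower. The latter was 1 of 8 probe sets of the list with a fold there, where 9.95% of all and 28.9% of the EST series were called lower.

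**Figure D4:**
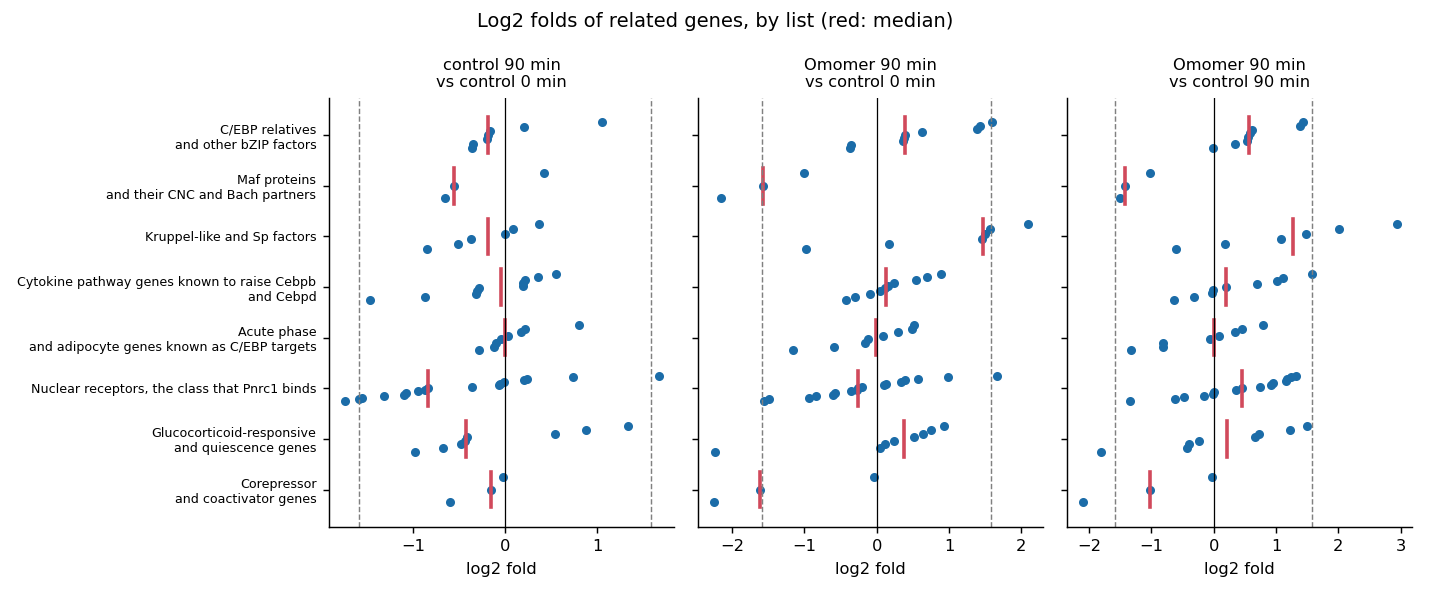
Log2 folds (x axis) of single probe sets (blue points) of the 8 lists of related genes in 3 comparisons of 2 arrays each, with the median of each list in red and dashed lines at 3-fold; bounds are plotted at their value. Nuclear receptors lie mostly below 0 in control cells at 90 min, and the Kruppel-like list lies mostly above 0 in both comparisons with stimulated Omomer cells.

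For each member, the 3 genes with the most similar pattern were found by the Euclidean distance over 3 log2 ratios against starved control cells, among 2118 or 2119 probe sets of other genes above the floor on all 4 arrays. Nearest to Ifrd1 was Myc, the target of Omomyc, at a distance of 0.57, with 1172 and 2307 at 0 min and 4980 and 7233 at 90 min, followed by Pvr (0.58) and Pdlim5 (0.77). Nearest to Pnrc1 was the growth arrest gene Gadd45a (0.76), followed by Eif2ak2 (0.78) and Fzd1 (0.82). To the brightest Maf probe set it was Loxl1 (0.39), then Zfp36 (0.66), both in the EST series, and Fzd2 (0.68). Smaller folds had closer neighbours: Col8a1 (0.11), Cbr1 (0.13) and Arhgap1 (0.13) for Cebpb, Gna12 (0.08), Ucp2 (0.11) and the factor Sp1 (0.18) for Cebpd, and Gpx3 (0.10), Dnaja2 (0.10) and Hspb6 (0.11) for Klf9. A distance over 3 ratios that share 1 array is a description of these arrays.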

How the data were processed

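RNA of 4 conditions was hybridized to Affymetrix rat genome arrays, 1 per condition. The deposited intensity values are average differences that the authors computed with MAS 4 at default settings, with values below 0 kept (array medians from 497 to 668). Of 8799 probe sets, 59 control probe sets were left out. Platform annotation gave 1 symbol for 7006, several for 308 and none for 1426. Members, lists, naming rules and alternatives were chosen with earlier results of these data known. From each list, genes with a probe set past 3-fold in any of the 5 comparisons are named, and a gene is given first by its brightest probe set. Il6st, Stat3 and Mafk were named as examples outside this rule. Klf10, Klf6, Sp1, Nr3c1, Nr1d1, Nr1d2 and Thra were named outside it to show what a list's median rests on. The EST series were grouped after the data were examined. Log2 folds are ratios of values raised to the floor of 1048, computed for all probe sets; the study's own fold rules were not used. With 1 array per condition no test was possible, so that precision is limited by the number of arrays. Calling was tested on simulated data with changes above 3-fold planted in bright probe sets only. That does not bear on folds near 3-fold or near the floor. Alternatives were floors of 524 and 2096, a floor per array, median scaling, quantile normalization, the MAS 4 difference form, values above the floor on both arrays only and, as the 1 added later, the data without the EST series. Promoters came from RefSeq, GRCr8. Python 3.11.15, numpy 2.4.6, pandas 2.3.3, scipy 1.17.1 and matplotlib 3.10.9 were used.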

Additional observations from a re-analysis of the deposited data

Results flagged for a closer look

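Klf4, a Kruppel-like relative of Klf9, was lower with serum in control cells and higher with serum in Omomer cells by both of its probe sets, each by more than the within-gene SD. L26292_at had log2 serum responses of -0.51 in control cells and 1.64 in Omomer cells, a difference of 2.15, and L26292_g_at had -0.85 and 1.68, a difference of 2.53. The first of these values for L26292_g_at is a bound, since 1012 lies under the floor. Both probe sets stem from the same sequence, and with 1 array per condition the difference was not tested. No member met the same rule.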

How the results depend on the processing

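No paired analysis was possible because each condition has 1 array. Over 7 alternatives, 347 of 365 log2 folds of member probe sets moved by less than the within-gene SD and 18 by more. Much of this is fixed in advance. For 2 values well above every floor, the other floors, the filter on both arrays and the difference form return the same fold. Median scaling and quantile normalization can change any fold, and with these 55 of 55 and 53 of 53 moved by less than that SD. No fold past 3-fold changed sign. Small log2 folds of Cebpb, Cebpd, Maf and Pnrc1 did, the widest from -0.22 to 0.08 (Cebpb S77528cds_s_at within Omomer cells, quantile normalization). The number of member probe sets past 3-fold was within 1.5 times its main value in all comparisons but 3. Between the lines at 0 min it was 0 and became 1 with a floor of 524 (Cebpd rc_AI045030_s_at, at least 3.51-fold lower). Without the EST series, whose grouping was made after the data were examined, it went from 1 to 0 between the lines at 90 min and from 2 to 1 within Omomer cells, since the brightest Maf probe set leaves. For stimulated Omomer against starved control cells it was 4, but 5 with a floor of 524 or the difference form, and 3 with a floor of 2096, a floor per array, values above the floor on both arrays or no EST series. Over all probe sets, those called lower in that comparison were 420, 691 with the floor at 524, 203 with it at 2096, 209 above the floor on both arrays and 142 without the EST series; those called higher were 118, 192 and 74 at these floors. In the same order of settings, between the lines at 90 min 347 lower became 560, 183, 187 and 104, and 90 higher became 164, 47 and 59. Within Omomer cells 406 lower became 676, 192, 190 and 120, and 122 higher became 203, 76 and 80. In control cells 72 lower became 156, 32 and 42, and 77 higher became 113, 49 and 48. At 0 min 20 lower became 55, 12 and 16, or 36 with the difference form, and 10 higher became 25, 4 and 4, or 18.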
